A study of Mus musculus with 2 samples.

Results

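The genes described here are 34 members of glycolysis and of the import and export of its fuel and product: 5 glucose transporters, the enzymes from hexokinase to lactate dehydrogenase, the 4 bifunctional regulators of phosphofructokinase and 3 monocarboxylate transporters. They were chosen by symbol for their place in the pathway, not by their level in these samples, and all 34 were found among the 55536 annotated genes. All are nuclear protein-coding genes, a class of 22015.

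Total RNA of heart tissue was sequenced from adult male mice, 8 to 10 months old, bred from 5xFAD and CAST parents. 5xFAD is a transgenic line in which neurons produce mutant human proteins of the amyloid pathway under a Thy1 promoter, and CAST is an inbred strain of wild origin. The 2 libraries, library 1 and library 2, form 1 group and carry the replicate numbers 1 and 2. No sample without the transgene was analysed here, so no value below bears on genotype, and heart tissue is not the tissue the transgene targets. The labels name the same donor for both libraries although the tissue samples differ, so the SD between them (n = 2 throughout) may be technical.

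Glycolysis splits glucose into pyruvate in the cytosol, and lactate dehydrogenase converts pyruvate and lactate into each other. Most steps can be run by several isozymes, related enzymes from separate genes that differ in kinetics, regulation and tissue. The adult heart gains most of its energy from fatty acids, yet it takes up glucose through an insulin-responsive transporter and can burn lactate delivered by the blood, for which monocarboxylate transporters and the heart form of lactate dehydrogenase are known.

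Library 1 held 39819960 expected counts and library 2 held 37060119, of which 309261 and 290112 fell on the 34 genes. Levels are given as TPM, a transcript's share of all transcripts after its reads are divided by its length, which allows genes to be set beside each other. Values are of the first of 2 deposited quantifications of these libraries unless the second is named. All 6 cardiomyocyte markers were detected, at 21520 and 21450 TPM summed in library 1 and library 2, and all 3 ventricle markers. Markers of endothelium, fibroblasts, smooth muscle and macrophages summed to between 38.7 and 181 TPM in each library, those of red blood cells to 1178 and 1147 TPM, those of neutrophils to 0.75 and 0.33 TPM and those of liver to 0.08 and 0.03 TPM. A list of 5 skeletal muscle genes summed to 1329 and 1360 TPM, mostly from Ckm at 1118 and 1170 TPM, which the heart also expresses, with Myh4 at 2.09 and 2.56 TPM. Atrial markers summed to 1163 and 1551 TPM and adipocyte markers to 10.0 and 37.9 TPM, higher in library 2 for all 4 and all 5 genes. In bulk tissue, fewer cells of a type and less RNA per cell cannot be told apart.

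The heart expressed a full glycolytic chain with a dominant gene at each step. Detected, at 1 TPM or more in both libraries, were 27 of the 34 genes, against 48.8% of nuclear protein-coding genes. Together the 34 held 2.11% ± 0.0178 of nuclear protein-coding TPM. The sum was uneven: Gapdh, Aldoa and Ldhb held 55.3% of it, and the 13 genes with a mean of at least 100 TPM held 95.9%. Of the 15 steps or functions, 10 had several genes, and in each of these 10 the same gene led in both libraries and under every setting tried.

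**Figure D1:**
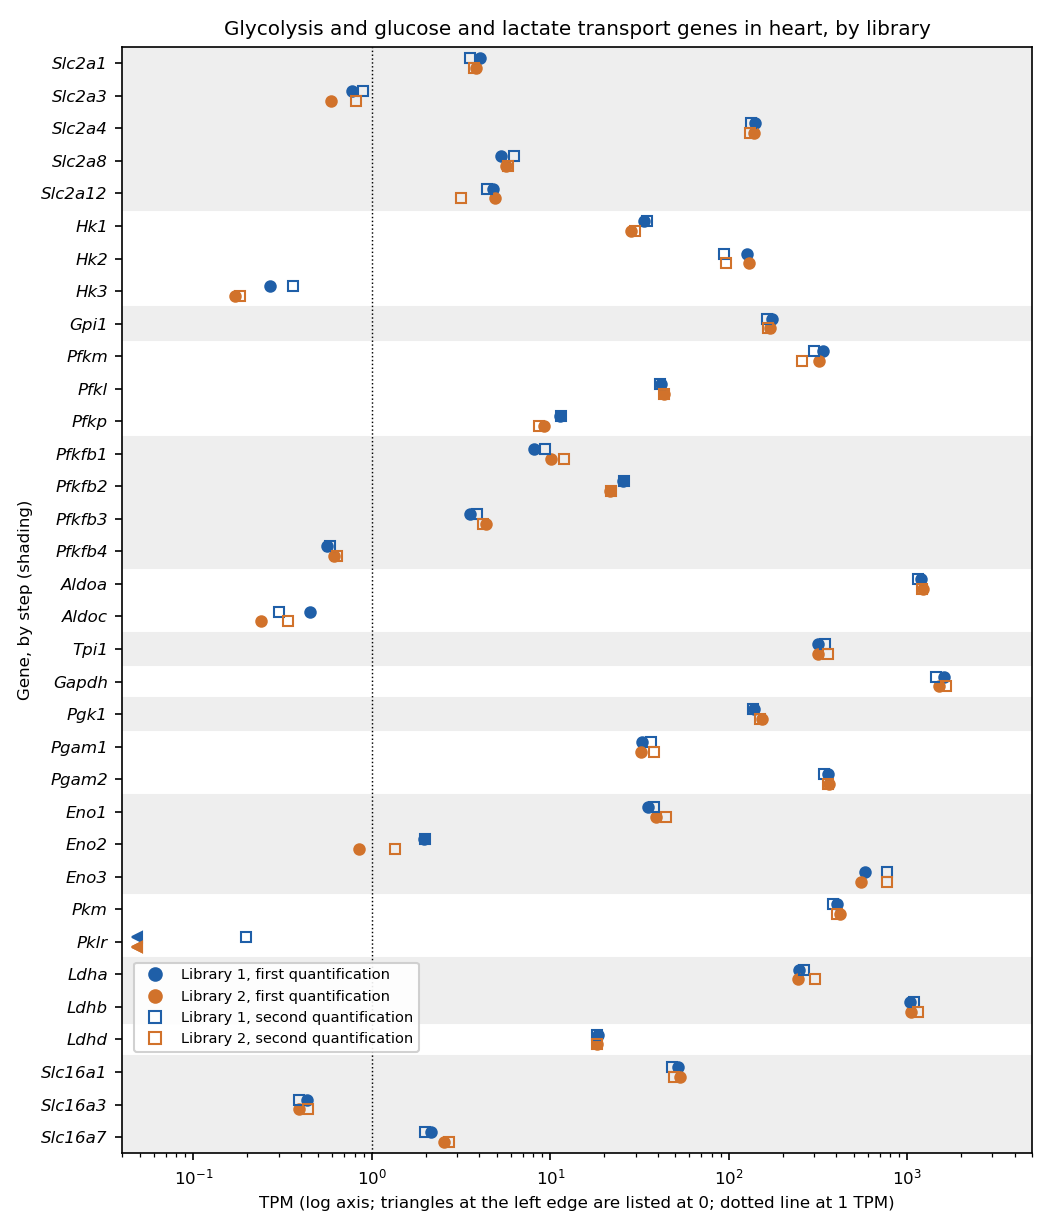
Level of each of the 34 genes in TPM on a log axis, grouped by step with alternate shading. Filled circles are the first quantification and open squares the second, for library 1 (blue) and library 2 (orange). The levels run from 0 for Pklr to the Gapdh points at the right, and the libraries lie close together except among the lowest genes.

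Among the glucose transporters, Slc2a4 had the highest transcript level. This gene (chromosome 11, 69942539 to 69948188 in mm10, minus strand) encodes GLUT4, the transporter that insulin and contraction bring to the muscle surface, and stood at 140.1 and 137.8 TPM in library 1 and library 2. Slc2a8, an intracellular transporter, stood at 5.27 and 5.63 TPM, Slc2a12, which encodes GLUT12, at 4.76 and 4.91 TPM (4.39 and 3.16 TPM in the second quantification), and Slc2a1, the basal transporter GLUT1, at 4.02 and 3.81 TPM. The neuronal transporter Slc2a3 was below the detection limit at 0.77 and 0.59 TPM. Slc2a4 therefore made up 90.3% ± 0.155 of the summed TPM of the 5 transporters and exceeded the next gene, Slc2a8, 25.5-fold ± 1.50. The order of Slc2a8, Slc2a12 and Slc2a1 is not firm: by expected counts, a unit without correction for length, Slc2a12 came before Slc2a8.

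Hexokinase, which traps glucose in the cell by phosphorylation, was mostly Hk2, the insulin-regulated muscle form (chromosome 6, 82725025 to 82774454, minus strand). Hk2 stood at 126.5 and 129.0 TPM in library 1 and library 2, and Hk1, the widely expressed form bound to mitochondria, at 33.7 and 28.4 TPM. Hk3, known from white blood cells, had 23 and 16 counts, or 0.27 and 0.17 TPM. The Hk2 share was 80.4% ± 2.15 and Hk2 exceeded Hk1 4.15-fold ± 0.558.
The size of this lead depended on a short noncoding entry. The second quantification gave Hk2 95.3 ± 1.23 TPM, against 127.7 ± 1.73 TPM in the first, a ratio of 0.746. Hk2-202, a processed transcript of 594 bases without a coding sequence, was listed at 0 in the second quantification and held 35.2 and 38.2 TPM in the first. The coding transcript Hk2-201 was at 81.8 and 81.9 TPM in the second quantification and at 89.1 and 90.3 TPM in the first. The Hk2 share was 74.6% in the second quantification and, likewise, 74.6% over coding transcripts of the first.

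Gpi1, the isomerase that turns the sugar phosphate made by hexokinase into the substrate of phosphofructokinase, has no isozyme in the set and stood at 174.9 and 170.1 TPM. Transcripts not classed as protein-coding, chiefly entries of the nonsense-mediated decay class, held 31.2% ± 0.0371 of its TPM.

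Phosphofructokinase, the committed and most regulated step, was led by the muscle gene Pfkm (chromosome 15, 98092589 to 98132451, plus strand) at 337 and 322 TPM. The liver form Pfkl stood at 41.5 and 43.1 TPM and the platelet form Pfkp at 11.3 and 9.20 TPM. Pfkm held 86.2% ± 0.310 of the step, Pfkl 11.1% ± 0.619 and Pfkp 2.68% ± 0.309. Pfkm exceeded Pfkl 7.80-fold ± 0.464.
Which Pfkm transcript carried the reads depended on the quantification. The second gave Pfkm-201 230.4 and 237.8 TPM and Pfkm-205 4.58 and 12.2 TPM, whereas the first gave Pfkm-201 149.4 and 139.2 TPM and Pfkm-205 122.5 and 125.2 TPM. The gene's total was closer, at 277 ± 29.9 TPM in the second and 329.5 ± 11.0 TPM in the first.

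The bifunctional enzymes, which make and break the sugar bisphosphate that activates phosphofructokinase, were the step with the least dominant leader. Pfkfb2, the form known from heart, stood at 25.6 and 21.7 TPM, and Pfkfb1, the form of liver and skeletal muscle, at 8.14 and 10.1 TPM. The inducible Pfkfb3 was at 3.53 and 4.37 TPM, and Pfkfb4, known from testis, below the limit at 0.56 and 0.61 TPM. Pfkfb2 held 63.3% ± 6.12 of the step, Pfkfb1 24.5% ± 4.18 and Pfkfb3 10.6% ± 1.82. The fold of Pfkfb2 over Pfkfb1 was 3.14 in library 1 and 2.15 in library 2.

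Aldolase, which cleaves the sugar bisphosphate into triose phosphates, was almost wholly Aldoa, the muscle form (chromosome 7, 126795234 to 126800751, minus strand), at 1199 and 1221 TPM. The brain form Aldoc had 15 and 7 counts, or 0.45 and 0.24 TPM, and Aldoa held 99.97% ± 0.0126 of the step. Tpi1, which interconverts the triose phosphates, stood at 347.6 and 359.7 TPM in the second quantification and at 314.8 TPM in both libraries in the first.

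Gapdh, which oxidises the triose phosphate and is often used as a reference gene, was the most abundant of the 34 (chromosome 6, 125161715 to 125166467, minus strand). It stood at 1609.7 and 1514 TPM in library 1 and library 2, position 14 among nuclear protein-coding genes. The second quantification gave 1441 and 1656 TPM, so the means, 1549 ± 152 and 1562 ± 67.8 TPM, differed by less than either SD.
The reads behind that level did not match. The second quantification assigned Gapdh 56534 and 49240 counts and the first 33614 and 29557, a ratio of 1.68 in library 1 and 1.67 in library 2. Gapdh-208, a processed transcript of 483 bases of which 426 lie in the coding part of Gapdh-201, held 0.213% ± 0.0411 of Gapdh TPM in the second quantification and 69.0% ± 0.365 in the first. The second was led by the coding Gapdh-203. Short entries lower the length by which reads are divided: the mean effective length of Gapdh was 629.8 and 625.9 bases in the first quantification, while Gapdh-201 is 1272 bases long.
Gapdh also has 170 pseudogene copies, taken as entries of at least 90% identity to its transcripts. The second quantification put 27801 and 24337 counts on them, which was 33.0% and 33.1% of the family, and the first 1618 and 1255 counts, which was 4.59% and 4.07%. Of the copies' counts in the second quantification, 96.6% and 96.9% lay on Gm7336 alone (chromosome 7, 51746647 to 51747878, plus strand), whose sequence has 0 mismatches to the 999 coding bases of Gapdh. Reads from the coding part cannot be told apart between Gapdh and Gm7336, and the Gapdh level is uncertain at least to that extent. Such identity is not particular to Gm7336. Gm10359 and Gm12671, each 100% identical to a Gapdh transcript over 1002 bases, took 0 counts in the second quantification. The total of the family differed as well. Gapdh and all copies took 84335 and 73577 counts in the second quantification and 35232 and 30812 in the first. That is a ratio of 2.39 in both libraries, and its cause was not tested. Gapdh and all copies summed to 2122 and 2318 TPM in the second quantification and to 1659 and 1552 TPM in the first.

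**Figure D2:**
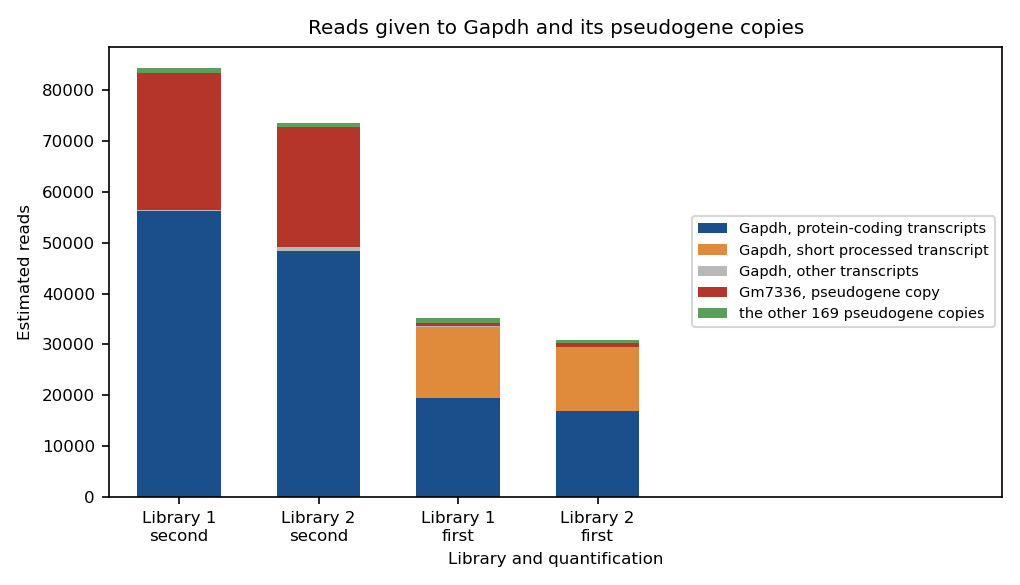
Estimated reads given to Gapdh and its pseudogene copies in each library and quantification, stacked by Gapdh transcript class and copy. The second quantification gives the short processed transcript, Gapdh-208, almost none and Gm7336 a large part in both libraries, while the first splits Gapdh reads between coding transcripts and Gapdh-208 with few on the copies.

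Pgk1, which makes the first ATP of the pathway, stood at 137.6 and 152.7 TPM (145.1 ± 10.6). Its copy Gm5537, identical over 1252 bases, received about 0 counts in the second quantification and 524 and 194 in the first.

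Phosphoglycerate mutase was led by Pgam2, the muscle form (chromosome 11, 5801640 to 5803733, minus strand), at 360.1 and 365.1 TPM, against 32.5 and 32.2 TPM for Pgam1, the brain form. The Pgam2 share was 91.8% ± 0.122 by TPM and 83.2% by expected counts, which take no account of length; Pgam2-201 is 840 bases long and Pgam1-201 is 1775.

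Enolase was led by Eno3, the muscle form (chromosome 11, 70657202 to 70662513, plus strand), at 578 and 549.8 TPM. Eno1, the common form, stood at 35.1 and 38.9 TPM, and Eno2, the neuronal form, at 1.95 and 0.85 TPM with 55 and 45 counts. Eno3 held 93.6% ± 0.507 of the step and exceeded Eno1 15.3-fold ± 1.64.
Eno3 was the gene of this set that rose most in the second quantification, with 771 ± 2.02 TPM there and 564 ± 19.7 TPM in the first, a ratio of 1.37. Its counts differed less, at 25310 and 22653 in the second and 23688 and 21630 in the first. The coding entry Eno3-203 of 363 bases held 207 and 182 TPM in the second and 64.4 and 54.7 TPM in the first, and Eno3-208, a retained intron of 498 bases, held 85.1 and 105.2 TPM and 0.89 and 0.94 TPM. Eno1 shares reads with the processed pseudogene Gm4735, 99.6% identical, which took 237 and 267 counts. These were 12.8% and 13.5% of the counts of Eno1 and its pseudogene copies. Eno1b, a protein-coding retrogene of Eno1, is not in that share and took more, 729 and 794 counts.

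Pyruvate kinase, which makes the last ATP of the pathway, was Pkm alone (chromosome 9, 59656368 to 59679375, plus strand), at 405 and 417 TPM. Pklr, the form of liver and red blood cells, had 0 counts in both libraries. A count of 0 allows 3 counts, or 0.0727 and 0.0773 TPM. The second quantification gave Pklr 1 count in library 1, listed at 0.196 TPM, and 0 in library 2.
Pkm is the step whose form is set by splicing and not by a second gene. Exon 9 is included in either of 2 versions: the M1 version, known from adult skeletal muscle, heart and brain, gives an enzyme that is constantly active, and the M2 version, known from embryonic and proliferating cells, gives one that is regulated allosterically. The exons are shown because they alone separate the proteins (mm10, plus strand, from the GENCODE M21 transcripts; M1 chr9:59675029-59675195, M2 chr9:59675568-59675734; capitals mark bases that differ).
Pkm M1 exon: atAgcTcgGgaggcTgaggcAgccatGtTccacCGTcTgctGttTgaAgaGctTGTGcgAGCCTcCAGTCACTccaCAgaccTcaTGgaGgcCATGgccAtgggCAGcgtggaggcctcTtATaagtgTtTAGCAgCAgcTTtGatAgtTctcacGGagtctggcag
Pkm M2 exon: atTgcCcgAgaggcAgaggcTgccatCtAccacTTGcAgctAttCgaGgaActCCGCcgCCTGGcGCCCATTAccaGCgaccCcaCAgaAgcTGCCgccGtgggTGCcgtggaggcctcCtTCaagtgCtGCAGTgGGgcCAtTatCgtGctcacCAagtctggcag
Both are 167 bases long and differ at 64 positions, with 103 the same (61.7% identity) and a GC content of 56.3% in M1 and 62.9% in M2. At 64 differences in 167 bases, reads that cover the exon can tell the forms apart, but 1874 bases are common to the main transcripts of both forms.

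The heart carried M1 and M2 at similar levels. Pkm-202, the M1 transcript, stood at 215 and 211 TPM in library 1 and library 2, and Pkm-201, the M2 transcript, at 182.1 and 199.2 TPM. Pkm-203, a retained intron that holds the M1 exon, added 2.43 and 2.33 TPM, and the 9 transcripts other than Pkm-202 and Pkm-201 were each under 5% of the gene. The M1 forms made up 54.4% in library 1 and 51.7% in library 2, or 53.1% ± 1.93, and the second quantification gave 52.3% ± 2.20. The ratio of M1 over M2 was 1.20 and 1.07 in TPM.
The lead of M1 is not firm, since it turned with the unit. In expected counts M1 held 13898 and 12819 reads and M2 14077 and 14488, an M1 share of 48.3% ± 1.93. Pkm-201 is 2432 bases long and Pkm-202 is 2041, and 391 of the bases outside Pkm-202 lie in a longer first and last exon and not in the M2 exon. Reads there were counted toward M2 as well, and no table used here gives reads over the exons or their junctions alone. M2 is also known from non-muscle cells, and how much of it came from cardiomyocytes was not tested.

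**Figure D3:**
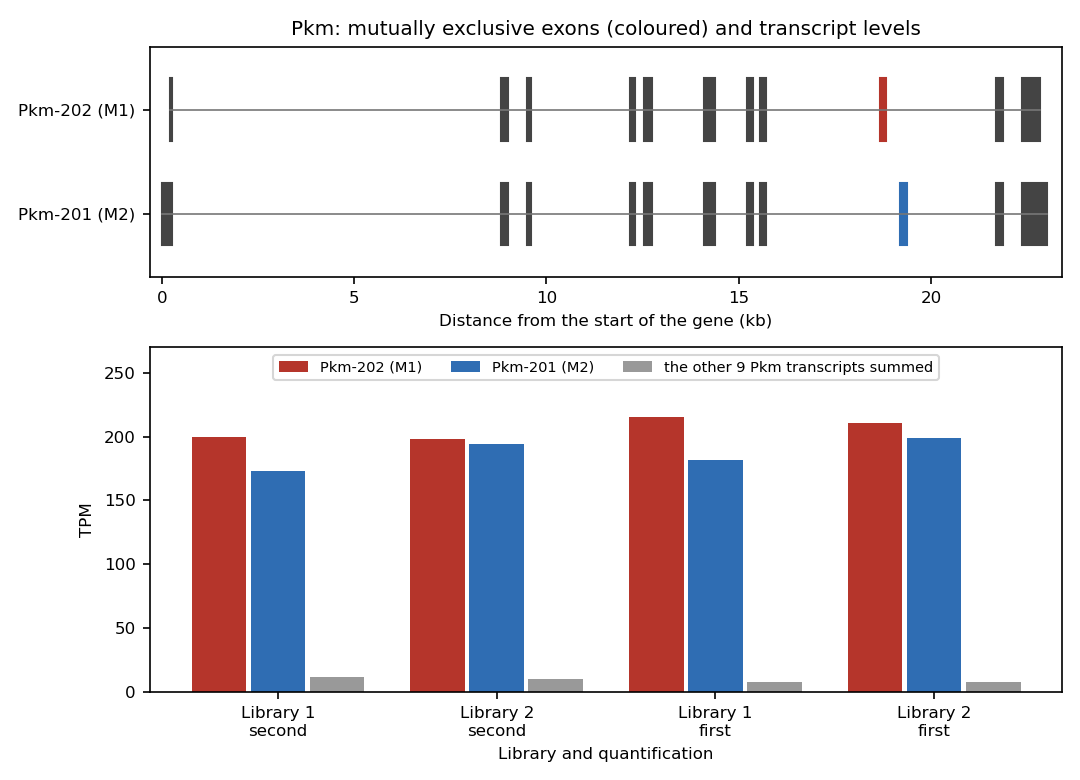
Top, the exons of Pkm-202 (M1) and Pkm-201 (M2) by distance from the gene's start in kb, with the alternative exon coloured. Bottom, TPM of both transcripts and of the other 9 Pkm transcripts summed, in each library and quantification: M1 lies between 198 and 215 TPM and M2 between 173 and 199 TPM.

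Lactate dehydrogenase was led by Ldhb, the heart form that favours oxidation of lactate to pyruvate (chromosome 6, 142490249 to 142507957, minus strand), at 1042 and 1056 TPM. Ldha, the form of skeletal muscle that favours lactate, stood at 246 and 243 TPM. The Ldhb share of the pair was 81.1% ± 0.291, with 79.8% ± 1.09 in the second quantification. Ldhb-202, a coding entry of 437 bases, raised this share: it held 204 and 238 TPM of Ldhb from 2276 and 2506 of its 35630 and 33061 counts. By expected counts the Ldhb share was 74.6%, and 77.3% once short transcripts were left out. Ldhd, a mitochondrial enzyme that acts on D-lactate, was apart from this pair at 18.5 and 18.2 TPM; it overlaps Znrf1 on the opposite strand, which had 1396 and 1452 counts against 1457 and 1352 for Ldhd.

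Lactate transport was led by Slc16a1, which encodes MCT1, the carrier that takes lactate into oxidative muscle (chromosome 3, 104638668 to 104658462, plus strand), at 51.8 and 53.5 TPM. Slc16a7, which encodes the high-affinity MCT2, stood at 2.14 and 2.54 TPM. Slc16a3, which encodes MCT4, the exporter of glycolytic muscle, was below the limit with 21 and 17 counts, or 0.43 and 0.39 TPM. Slc16a1 held 95.04% ± 0.329 of the summed TPM and exceeded Slc16a7 22.6-fold ± 2.22.

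**Figure D4:**
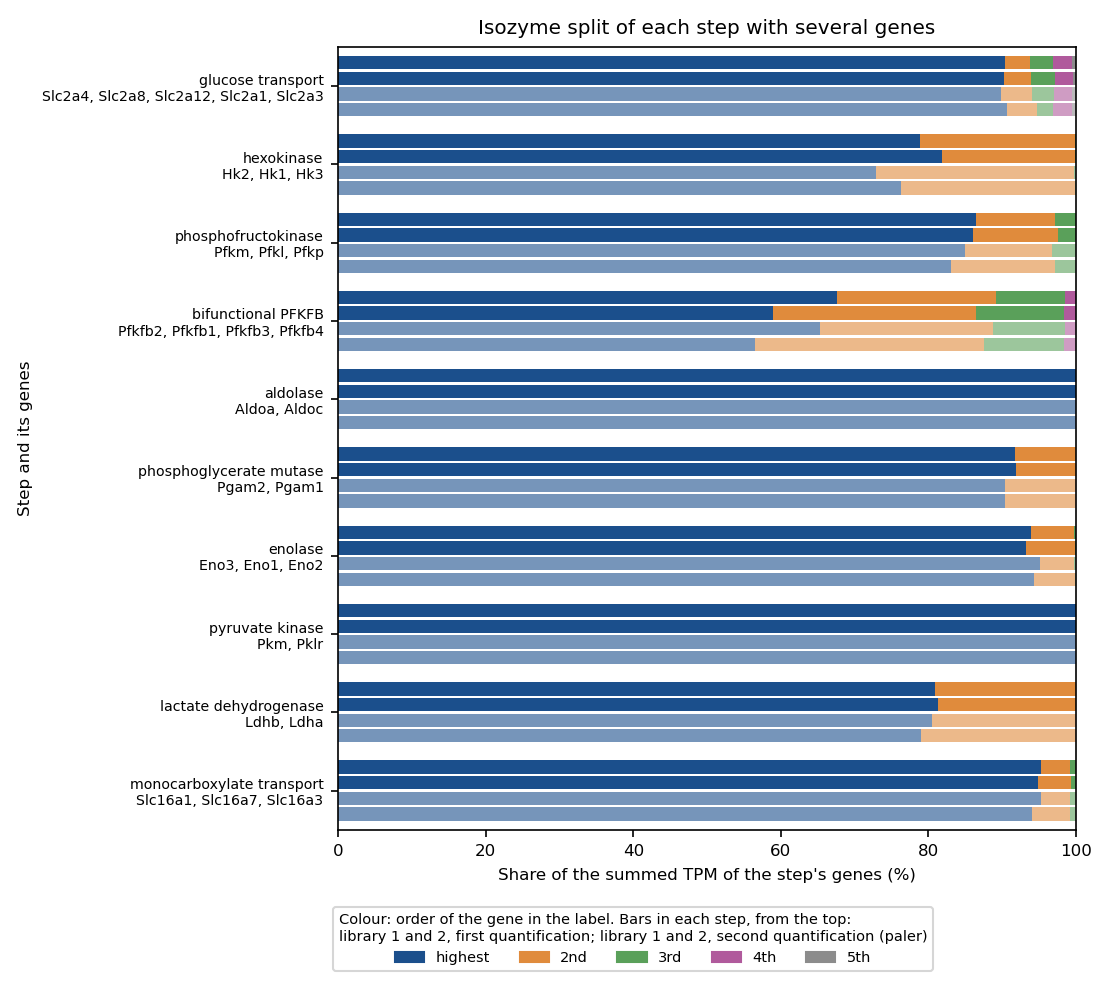
Share of each gene in the summed TPM of its step, in percent, for the 10 steps with several genes. In each step the upper bars are library 1 and library 2 of the first quantification and the paler lower bars the second. The leading gene holds over 55% in every bar, least for Pfkfb2 and most for Aldoa and Pkm.

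Along the chain, summed levels were far from equal. The steps from aldolase to lactate dehydrogenase ran from 145.1 ± 10.6 TPM for Pgk1 to 1562 ± 67.8 TPM for Gapdh, with 1211 ± 15.6 TPM for aldolase, 395 ± 3.37 TPM for phosphoglycerate mutase, 602 ± 17.8 TPM for enolase, 411 ± 8.81 TPM for pyruvate kinase and 1294 ± 6.88 TPM for lactate dehydrogenase. The entry steps stood near Pgk1 and under the other later steps. They had 153.8 ± 1.59 TPM for glucose transport, 159 ± 2.10 TPM for hexokinase and 172 ± 3.40 TPM for Gpi1. Phosphofructokinase stood at 382 ± 11.3 TPM, above Tpi1 at 314.8 ± 0.0283 TPM. Their order turned in the second quantification, with 330 TPM for phosphofructokinase and 354 TPM for Tpi1. Monocarboxylate transport had 55.4 ± 1.46 TPM and the bifunctional enzymes 37.3 ± 0.785 TPM, the lowest of the shared steps. The order of hexokinase and glucose transport turned in the second quantification, which gave 127.8 TPM for hexokinase and 146.3 TPM for glucose transport.

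Isozymes of a step differed widely in sequence. Over 32 pairs within steps, identity of coding sequence ran from 58.7% for Slc16a3 and Slc16a7 to 77.8% for Eno2 and Eno3, with 73.0% for Ldha and Ldhb and 71.6% for Hk1 and Hk2. Closer copies were searched for among annotated pseudogenes only, of which 206 matched 10 of the 34 genes and 107 had counts. Beside those of Gapdh, Eno1 and Pgk1, Gm5514 took 616 and 561 counts next to Ldhb, Gm1840 406 and 397 next to Gpi1, and Pgam1-ps2 66 and 22 next to Pgam1. An exon of another gene overlapped 16 of the 34, on the opposite strand for 15 of them. The share over all genes was not computed. Like Ldhd, some detected members had an opposite-strand partner with counts of similar size. These were Pfkp (1024 and 848, Pitrm1 1370 and 1306), Pfkfb1 (377 and 482, Apex2 289 and 311) and Slc2a12 (527 and 424, Tbpl1 308 and 292). The strand used for counting was not given, and the part of these overlaps in the levels and library ratios was not tested.

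Of the 27 detected genes, 24 had the same leading transcript in both libraries and both quantifications. For Pgam2 and Slc16a1, with 1 annotated transcript each, this was fixed in advance. In the first quantification 26 of the 27 were led by a coding transcript, the exception being Gapdh. The same counts over all genes were not computed, so whether the members stand out is not known. For Hk1 the leader was Hk1-201 in the second quantification and Hk1-202 in the first. Among the 28 genes with a mean of at least 1 TPM, 6 had at least 25% of TPM on entries not classed as protein-coding. These were, in both libraries, Slc2a1, Hk2, Gpi1, Pfkfb3, Gapdh and Eno2. The share over nuclear protein-coding genes at that level was 19.4%. The quantifications differed by a factor of 5/4 or more for 3 of the 28 (Eno3, Hk2 and Slc2a12), against 12.4%. Neither share stands far from its background.

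The libraries were close. By the exact 95% interval of the ratio of scaled counts, library 2 over library 1, 15 of 33 genes differed by more than counting error, against 19.7% of all genes tested; 8 were higher in library 2 (9.62% of all genes) and 7 in library 1 (10.1%). The intervals cover counting error only, so deeply counted genes can pass with small differences. At a mean TPM of at least 10, 12 of 21 members (57.1%) were called, against 29.6% of nuclear protein-coding genes. The members thus stayed above the background at that level, and the cause was not tested. By size, 1 of 33 genes, Eno2, differed by a factor of 5/4 or more in TPM + 1, against 9.47% of all genes. Its counts were 55 and 45, and the interval of their scaled ratio, 0.873 (0.575 to 1.32), included 1. The effective length by which its reads were divided was 852 bases in library 1 and 1690 in library 2. The median ratio was 0.990 over the 33 genes and 1.000 over all genes tested.
Pfkfb1 had the highest ratio that left out 1, at 1.36 (1.19 to 1.57), and Slc16a7 followed at 1.23 (1.02 to 1.48). Eno1 had 1.13 (1.05 to 1.21) and Pgk1 1.11 (1.08 to 1.15), against 1.18 and 1.08 in the second quantification. Pfkl had 1.09 (1.04 to 1.14), against 1.10 in the second quantification. Gm5537, the identical copy of Pgk1, took 524 and 194 counts in the first quantification. The part of this uneven split in the Pgk1 ratio was not tested. On the other side stood Pfkfb2 at 0.842 (0.791 to 0.896), Slc2a12 at 0.859 (0.754 to 0.977), whose interval included 1 in the second quantification, Hk1 at 0.874 (0.835 to 0.915) and Pfkp at 0.884 (0.806 to 0.969). Among the leading genes, Aldoa at 1.03, Pkm at 1.04 and Slc16a1 at 1.04 were higher in library 2, and Pfkm at 0.973, Eno3 at 0.974 and Gapdh at 0.938 in library 1, while Slc2a4, Hk2, Pgam2 and Ldhb had intervals that included 1. In the second quantification the intervals of Pfkm and Slc16a1 included 1 as well. For Gapdh the direction there depended on the unit. Its scaled counts were lower in library 2, at a ratio of 0.953, but its TPM was higher, at 1441 in library 1 and 1656 in library 2. Atrial and adipocyte markers were higher in library 2, as were, by scaled counts, the 8 members whose intervals lay above 1. The summed TPM of the macrophage markers in library 2 was 1.05 of that in library 1, with 3 of the 5 genes higher. Markers of ventricle, endothelium, fibroblasts and smooth muscle were lower in library 2, as were, by scaled counts, the 7 members whose intervals lay below 1. The summed TPM of these 4 lists in library 2 was 0.949, 0.918, 0.934 and 0.907 of that in library 1. The part of any of these markers in the ratios was not tested.

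**Figure D5:**
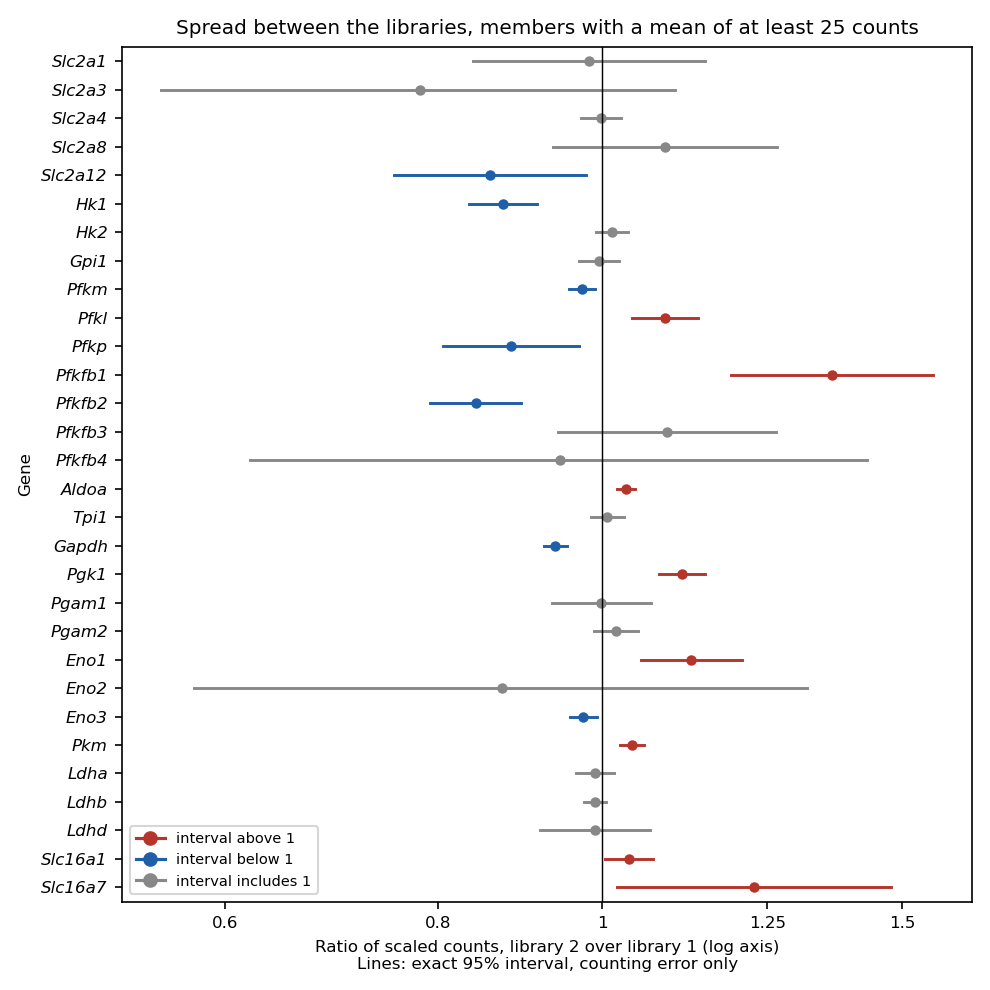
Ratio of scaled counts, library 2 over library 1, on a log axis for the 30 genes with a mean of at least 25 counts, with the exact 95% interval of counting error. Intervals above 1 are red, below 1 blue and those that include 1 grey, and most points lie close to 1.

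Around the chain, 34 further genes of glucose handling were read from a list of related genes, and 19 of them were detected. The highest was Bsg, basigin, which carries MCT1 to the membrane, at 453 and 477 TPM. Txnip, a brake on glucose uptake, stood at 289 and 284 TPM. Mpc1, a subunit of the mitochondrial pyruvate carrier, stood at 407 and 357 TPM in the second quantification and at 285 and 290.5 TPM in the first. Mpc2, its partner subunit, stood at 287 and 320.3 TPM in the second and at 201.5 and 212 TPM in the first.
Pgm1, which links glycogen to glycolysis, had 81.4 and 80.6 TPM. G6pc3, a widely expressed glucose phosphatase, had 19.2 and 21.4 TPM, Tigar, which removes the activator of phosphofructokinase, 16.5 and 16.5 TPM, and Eno1b, a retrogene of Eno1, 13.4 and 15.5 TPM. Of the further genes, 7 were listed at 0: Slc2a7, Gapdhs, Gckr, Hkdc1, Fbp1, Pgk2 and Ldhc.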

How the data were processed

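Total RNA of 2 heart libraries was made from 300 ng each with a directional kit and ERCC spike-ins, per the labels' protocols. Per the deposited readme, the build was mm10 and the annotation GENCODE M21. The aligner, the tool versions and the strand used for counting were not given in the sources used here. The first quantification (column layout of RSEM) gives expected counts, in which the authors' estimator splits shared reads, and TPM and FPKM per gene and transcript, per the file headers. The deposited percent of each isoform was not used; shares were computed from TPM. The second (layout of kallisto) gives estimated counts and TPM per transcript as deposited, summed here per gene.

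Symbols came from the second table and matched all 34 members; Aldoa has 2 entries and the expressed one was used. Entries outside the annotation (spike-ins and others) held 0.381% and 0.361% of expected counts and were left out. The members and lists were chosen with earlier results of these data known. Named genes were all members, their leading transcripts, Pkm transcripts with at least 5% of the gene, and the 8 highest of the related genes; others (short transcripts, pseudogenes and genes listed at 0) were picked once their values had been seen. The only group allows no test, and no p-value was computed. Expected counts were rounded; library sizes were TMM-scaled with edgeR 4.0.16 (14851 genes kept), or by DESeq2 1.42.0 size factors as an alternative, and ratios carry an exact 95% conditional binomial interval for genes with at least 10 counts. The step was checked on simulated counts with a known change. Pseudogene copies were aligned with BLAST 2.17.0 (at least 90% identity over 200 bases and over 0.5 of the copy) and coding sequences with the pairwise aligner of Biopython 1.88. Figures were drawn with matplotlib 3.10.9, and tables were handled in R 4.3.3 and in Python 3.11.15 (scipy 1.17.1, pandas 2.3.3, numpy 2.4.6). Alternatives were the second quantification, other units, transcript subsets, added pseudogene copies, other filters and scalings, and leaving out each library. Intervals and floors cover counting error only.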

Additional observations from a re-analysis of the deposited data

How the results depend on the processing

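The same gene led each of the 10 steps under all alternatives run, which were the second quantification, expected counts, FPKM, coding transcripts, pseudogene copies added and each library left out. The Ldhb share was 79.8% in the second quantification, 74.6% in expected counts and 77.3% over the longer protein-coding transcripts. It was 80.9% to 81.3% with 1 library left out. The M1 share of Pkm fell to 48.3% in expected counts, against 53.1% in TPM, and was 51.7% to 54.4% with 1 library left out. The 34 genes held 2.05% of nuclear protein-coding TPM in the second quantification, 1.45% in expected counts, 2.02% over coding transcripts and 2.10% to 2.13% with 1 library left out. With pseudogene copies added, an alternative chosen after the data were seen, they held 2.14%, and 2.25% in the second quantification. Genes whose libraries differed numbered 1 by a ratio of at least 5/4 in TPM + 1 and 4 with TPM + 0.1, against 15 by the exact interval, 14 with DESeq2 size factors, where Slc16a1 was lost, and 12 in the second quantification, where Slc2a12, Pfkm and Slc16a1 were lost. The cause of these moves was not tested. Among 138 checks of single shares, 67 moved by less than 1 SD and 71 by more, among them Pgam2 at 83.2% and Pfkfb1 at 15.02% in expected counts. FPKM and leaving out 1 of 2 libraries are not in that number, since their moves are under 1 SD by construction. With 2 libraries an SD is itself poorly known. Adding Eno1b to Eno1, also chosen after the data were seen, gave an Eno3 share of 91.4%. No paired analysis was possible because the labels give only 1 group. At this depth 3 counts set the floor for Pklr.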
